A study of Mus musculus with 14 samples.

Results

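Chromatin remodellers and modifiers are described here in the cerebral cortex of mice without Fmr1, which encodes FMRP, a protein that binds RNA. The members were 41 listed genes for remodelling ATPases and their partners, histone acetyl- and methyltransferases, demethylases and co-regulators, many of them reported as FMRP targets or autism genes. Of these, 36 names stood in the table of 23412 genes. Another 4 (Kmt2a, Kmt2c, Kmt2d and Kmt2e) were found under the older symbols Mll1, Mll3, Mll2 and Mll5 and are counted apart. Mll2 has served as a symbol of both Kmt2d and Kmt2b, and was read as Kmt2d because Kmt2b had a row of its own under Wbp7. Srcap was not analysed here.

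All mice carried floxed Rpl22 alleles (Rpl22flox/flox) and the CamKCre transgene, a Cre driven by a CamK promoter, and the labels call the source CAMKIIa-Ribotag. Control mice had no further allele named, and KO mice, labelled Fmr1X-Y, lacked Fmr1 in addition. Neither ages nor treatments are given in the labels, and no pull-down of tagged ribosomes is named in the protocols, so both assays are read as whole cortex. mRNA was sequenced from control mice 1, 3, 6 and 8 (n = 4) and from KO mice 2, 4, 5 and 7 (n = 4). Footprints, the mRNA fragments that ribosomes shield from nuclease, were sequenced from control mice 1, 3 and 9 (n = 3) and from KO mice 2, 4 and 10 (n = 3).

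Chromatin remodellers use ATP to slide, evict or exchange nucleosomes, and histone-modifying enzymes add or remove acetyl and methyl groups that mark active or silent chromatin. Many of these proteins are very large, work as subunits of multi-protein complexes, and are sensitive to gene dose: loss of a single copy of genes such as CHD8, ARID1B, KMT2A, SETD5, ANKRD11 or EHMT1 causes human neurodevelopmental disorders. FMRP binds neuronal mRNAs, many of them long, and has been studied as a regulator of their translation.

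Libraries held 8847547 to 11371851 counts in RNA and 4124065 to 6033030 in footprints, and the 36 genes had 137 to 12698 counts per RNA library and 21 to 2406 per footprint library. Fmr1 RNA was at 82.9 ± 8.36 CPM (counts scaled to a common library size) in the 4 control libraries and at 21.7 ± 2.40 CPM in the 4 KO libraries (SD). The RNA of KO mice 2, 4 and 7 was nearly alike. Over genes with at least 20 counts in a pair, their chi-square per degree of freedom was 1.18 to 1.32, against 5.64 to 6.02 with KO mouse 5 and 1.99 to 11.8 within controls. They differed by more than counting noise alone. That cannot tell separate mice from repeat libraries of 1 sample, so they were counted as 3 samples on their labels only. The RNA and TE tests rest on this. With these libraries summed, calls over all genes went from 1015 to 85 in RNA and from 904 to 505 in TE. In control mice 6 and 8 the median RNA level of the 36 genes lay 0.065 and 0.10 (log2) below the mean of the RNA libraries. Controls 1 and 3 lay 0.032 and 0.055 above it, and KO mice between -0.014 and 0.041.

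The mRNA levels of these genes differed little between genotypes, while their ribosome footprints were lower in KO mice nearly throughout. In footprints 29 of the 36 genes fell and 0 rose (80.6%; edgeR's quasi-likelihood test, adjusted p under 0.05). Over all 12158 genes tested, 25.7% were called and 13.7% were called lower. The median log2 fold change of the 36 genes was -0.32, with a range of -0.65 to 0.094, beside a median of 0.0061 over all genes. The summed footprint level of the 36 genes ran from 4909 to 4996 CPM in controls (4942 ± 47.2, SD, n = 3) and from 3913 to 3982 CPM in KO mice (3947 ± 34.3, SD, n = 3). In 29 genes every KO library lay below every control library, beside 19.2% of all genes tested.

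In RNA, 3 of the 36 genes rose and 0 fell (8.33%; edgeR), where 7.51% of all 13507 genes were called and 3.58% were called higher. That share is near the background. The groups did not overlap in RNA for 6 of the 36 genes, beside 15.1% of all genes. The median RNA change was 0.034 with a range of -0.15 to 0.41. Summed RNA of the 36 genes averaged 8329 ± 488 CPM over control mice and 8349 ± 30.03 CPM over KO mice (SD, n = 4 each). The RNA counts moved with the libraries used, and so did the share of all genes called. Without control mice 6 and 8, edgeR called 2 of the 36 genes higher and 4 lower, beside 14.6% of all genes called. With KO mice 2, 4 and 7 summed to 1 library it called 0 of the 36, beside 0.623% of all genes.

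Translational efficiency (TE) is the footprint level relative to the RNA level of the same gene. TE fell in 19 of the 36 genes and rose in 0 (52.8%; edgeR), beside 7.44% of all 12145 genes called and 4.22% called lower. All 36 fold changes were negative, from -0.81 to -0.038, with a median of -0.34 against -0.011 over all genes. The footprint libraries enter both tests, so the TE values do not count as a separate observation. Among called genes the median fall was -27.97% in TE and -21.3% in footprints. Without mouse 2, TE was called in 12 genes, all lower. The 4 genes under older symbols had 4 footprint falls (median -0.56), 3 TE falls (median -0.72) and 1 rise in RNA. In bulk tissue, fewer cells of a type and less RNA per cell cannot be told apart.

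**Figure D1:**
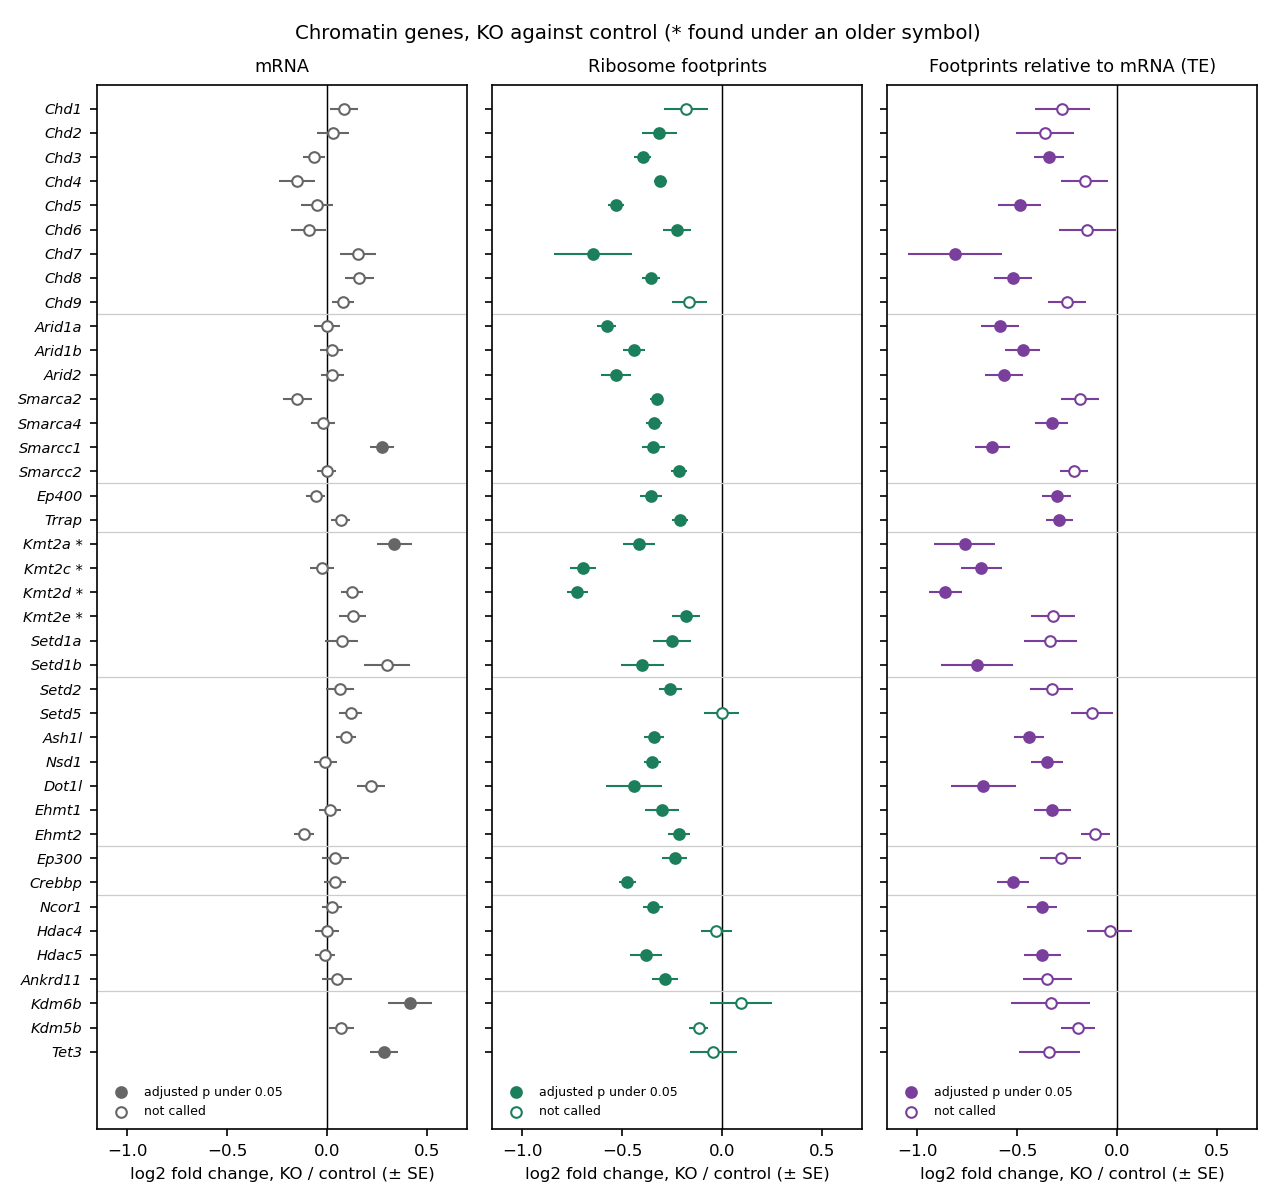
Log2 fold changes, KO against control, of 40 chromatin genes in mRNA (left), footprints (middle) and TE (right), in order of role; points are edgeR estimates, bars are ± SE, filled points have an adjusted p under 0.05, and asterisks mark the 4 genes under older symbols. Footprint points lie left of 0 for all but Kdm6b, whereas mRNA points lie on both sides.

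The shift was shared by all footprint libraries. The median of the 36 genes lay at 0.15, 0.17 and 0.14 (log2, against the mean of the 6 libraries) in control mice 1, 3 and 9. In KO mice 2, 4 and 10 it lay at -0.16, -0.14 and -0.15. Each KO footprint library shares a title prefix with 1 control library. Within these pairs (mice 1 and 2, 3 and 4, 9 and 10), 35, 34 and 33 of the 36 genes were lower in the KO mouse, where 49.6%, 49.8% and 49.9% of all genes were. The RNA libraries did not split by genotype in the same way. Between mice 1 and 2, 17 of the 36 genes were higher in the KO mouse, and between mice 3 and 4, 16. For KO mice 5 and 7 against control mice 6 and 8 the number was 30, with a median of 0.090.

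**Figure D2:**
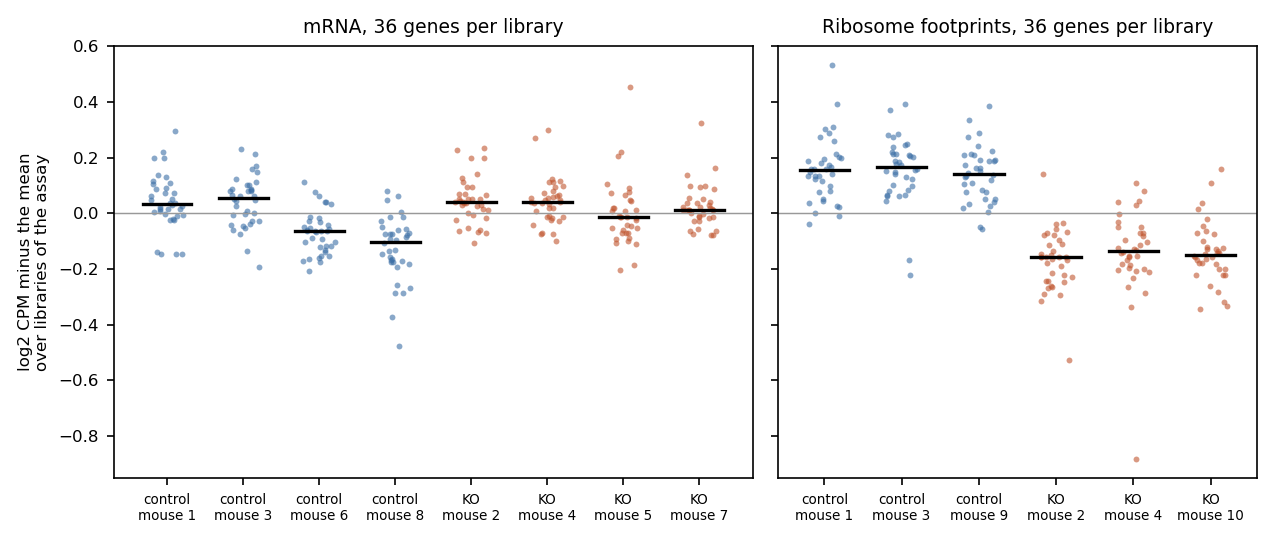
Each point is 1 of the 36 genes in 1 library, as log2 CPM minus that gene's mean over the libraries of the assay; black bars are medians, blue is control and orange is KO. The 3 KO footprint libraries have medians of -0.16 to -0.14 and the 3 control footprint libraries 0.14 to 0.17, while RNA medians run from -0.10 (control mouse 8) to 0.055 (control mouse 3).

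Markers of the main cortical cell types, 8 each for excitatory neurons, inhibitory neurons, oligodendrocytes, astrocytes, microglia and endothelium, were all detected and none was at 0 throughout. Some summed levels moved with genotype, although single markers went both ways. Summed excitatory markers were at 1921 to 2075 CPM in control RNA and 2205 to 2297 CPM in KO RNA, and at 1476 to 1503 and 1529 to 1567 CPM in footprints. Oligodendrocyte markers ran the other way, at 4952 to 5400.1 and 4329.7 to 4659 CPM in RNA and 8364 to 8520.0 and 8151 to 8197 CPM in footprints. In footprints, inhibitory neuron markers were at 1644 to 1689 CPM in controls and 1717.5 to 1745 CPM in KO mice. Astrocyte footprints were at 6369 to 6449.8 and 6325 to 6358 CPM and microglial ones at 507 to 532 and 491 to 504 CPM. Endothelial footprints overlapped, at 289 to 295 and 288 to 313 CPM. In RNA the sums of the inhibitory neuron, astrocyte, microglial and endothelial lists overlapped between genotypes. Inhibitory neuron RNA was at 833 to 866 CPM in controls and 836 to 970 CPM in KO mice, and astrocyte RNA at 3731 to 4152 and 3882 to 4691 CPM. Within the lists, 4 of the 8 excitatory markers had positive and 4 negative footprint changes, with 2 called higher and 1 lower. Of the 8 oligodendrocyte markers, 3 had positive and 5 negative ones, with 1 called higher and 4 lower. RNA changes were less mixed, with 6 excitatory markers positive and 2 negative, and 1 oligodendrocyte marker positive and 7 negative. Microglial RNA had 1 positive and 7 negative, endothelial 7 and 1, astrocyte 3 and 5, and inhibitory neuron 4 and 4. The part of these markers in the fall of the chromatin genes was not tested.

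The CHD family are ATP-dependent remodellers with paired chromodomains, and 7 of its 9 genes fell in footprints and 4 in TE, with 0 called in RNA. Chd7, the gene of CHARGE syndrome, had the largest fall of the family. Its footprints were at 13.2, 10.5 and 10.99 CPM in control mice 1, 3 and 9 and at 8.78, 4.70 and 8.38 CPM in KO mice 2, 4 and 10, or 56, 62 and 62 counts against 37, 21 and 40. All KO libraries lay below the controls, KO mouse 4 the farthest. Chd7 RNA was at 32.03, 33.5, 29.2 and 25.9 CPM in control mice 1, 3, 6 and 8 and at 36.4, 34.2, 31.4 and 31.9 CPM in KO mice 2, 4, 5 and 7, with overlap between the groups. The log2 fold change was -0.65 ± 0.20 (SE) in footprints (edgeR, adjusted p = 0.00852) and -0.81 ± 0.24 in TE (adjusted p = 0.0391). Without KO mouse 4 it was -0.41 in footprints (adjusted p = 0.162) and -0.57 in TE (adjusted p = 0.217), and DESeq2 gave an adjusted p of 0.0666 for footprints. The TE call was also lost without mouse 1, 2, 6, 9 or 10 (adjusted p 0.101, 0.0727, 0.0624, 0.0695 and 0.0546), with KO mice 2, 4 and 7 summed (0.0717) and with plain library sizes (0.0587).

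Chd3, Chd4 and Chd5 are the ATPases of the NuRD complex, which joins remodelling to histone deacetylation, and all 3 fell in footprints. Chd5, which is largely neuronal, was at 269, 267 and 274 CPM in control footprints and 184, 197 and 179.7 CPM in KO footprints, a log2 fold change of -0.53 (edgeR, adjusted p = 4.08e-20). Chd3 went from 239 ± 6.24 to 181 ± 5.56 CPM (SD, n = 3), a log2 fold change of -0.40. Chd4 went from 389 ± 17.3 to 315 ± 4.55 CPM (SD, n = 3), a log2 fold change of -0.31. No footprint library of these genes overlapped between genotypes. In TE, Chd5 (-0.49) and Chd3 (-0.34) fell, while Chd4 was not called (-0.16, adjusted p = 0.447). Chd4 RNA was uneven among controls, at 508 and 486 CPM in mice 1 and 3 and 397 and 362 CPM in mice 6 and 8, against 386 to 401 CPM in KO mice. With the mouse as a block the TE change of Chd4 was 0.021 (adjusted p = 0.880) and that of Chd5 was -0.26 (0.00291). In mice 1 to 4 alone, RNA of Chd4, Chd5 and Chd3 was called lower (-0.34, -0.23 and -0.14, with edgeR adjusted p 3.08e-07, 8.91e-05 and 0.000875). That of Chd4 was also called lower without mouse 8 (-0.23, adjusted p = 0.0369). The subset of mice 1 to 4 sets only control mice 1 and 3 against KO mice 2 and 4, whose RNA was nearly alike. In it 24.2% of all genes were called, so single RNA calls there, here and below, carry little weight.

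Chd8, a high-confidence autism gene, fell in footprints from 199 ± 5.72 to 156 ± 3.99 CPM (SD, n = 3), a log2 fold change of -0.35, and in TE by 0.52 (edgeR, adjusted p = 0.00161; -0.34 with the mouse as a block). Chd2, mutated in childhood epilepsy, fell in footprints (-0.31) but was not called in TE (-0.36, adjusted p = 0.136). Chd6 fell in footprints (-0.22), with TE at -0.15 and not called, and its libraries overlapped at 83.5 CPM. The footprint call of Chd2 was lost without mouse 1 (adjusted p = 0.104). That of Chd6 was lost without mouse 1 (0.143) or 2 (0.111), with DESeq2 (0.0666) and with plain library sizes (0.0609), and its RNA was called lower in mice 1 to 4 alone (-0.17, adjusted p = 0.00722). Chd1 (-0.18) and Chd9 (-0.16) were not called in footprints, nor in TE (-0.27 and -0.25).

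SWI/SNF complexes evict nucleosomes at enhancers and promoters, and all 7 listed subunits fell in footprints, 5 of them in TE. Arid1a, a DNA-binding subunit of the BAF form, had the largest footprint fall of the group. It was at 205, 215 and 189 CPM in control mice 1, 3 and 9 and at 135, 136 and 136 CPM in KO mice 2, 4 and 10. The KO libraries were nearly equal, and all lay far below the lowest control. Its RNA was at 181, 174, 158 and 146 CPM in control mice 1, 3, 6 and 8 and at 169, 165, 163 and 161 CPM in KO mice 2, 4, 5 and 7, inside the control range. The log2 fold change was -0.58 ± 0.048 (SE) in footprints (edgeR, adjusted p = 1.55e-18) and -0.58 ± 0.095 in TE (adjusted p = 0.000471). Its paralogue Arid1b fell by 0.44 in footprints and 0.47 in TE. Arid2, the counterpart in the PBAF form, fell by 0.53 and 0.57.

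Smarcc1, a core scaffold of the complex, was the single member that rose in RNA and fell in footprints and TE, leaving the genes under older symbols aside. RNA counts gave 96.5, 85.6, 86.8 and 87.4 CPM in control mice 1, 3, 6 and 8 and at 105, 106, 113 and 108 CPM in KO mice 2, 4, 5 and 7. Its footprints were at 118, 122 and 122 CPM in control mice 1, 3 and 9 and at 103, 91.1 and 91.7 CPM in KO mice 2, 4 and 10. Neither assay overlapped between genotypes, in opposite directions. The log2 fold change was 0.27 ± 0.058 (SE) in RNA (edgeR, adjusted p = 0.0128), -0.34 ± 0.058 in footprints (adjusted p = 9.46e-07) and -0.62 ± 0.087 in TE (adjusted p = 0.000115). With KO mice 2, 4 and 7 summed, the RNA change was 0.30 and not called (adjusted p = 0.124), and in mice 5 to 8 alone it was 0.34 (adjusted p = 0.130).

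The other scaffold, Smarcc2, was not called in RNA (-0.0029; edgeR, adjusted p = 0.981) and fell in footprints (-0.21). In TE it was at -0.22 with an adjusted p of 0.0579, which the mouse as a block moved to 0.0258, DESeq2 to 0.0286, and leaving out mouse 5 or 8 to 0.0183 or 0.0407. The ATPase subunits Smarca4 and Smarca2, of which a complex holds either, fell in footprints by 0.34 and 0.33. In TE Smarca4 fell (-0.33, adjusted p = 0.0183) and Smarca2 was not called (-0.19, adjusted p = 0.254). The difference between these genes was not tested. The TE call of Smarca4 was lost without mouse 2, 4, 9 or 10 (adjusted p 0.103, 0.0621, 0.0527 and 0.0612), with KO mice 2, 4 and 7 summed (0.0597) and with plain library sizes (0.0560). Smarca2 RNA was called lower without mouse 8 (-0.20, adjusted p = 0.0386) and in mice 1 to 4 alone (-0.26, 1.1e-05).

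Ep400, the ATPase that exchanges histone H2A variants, and Trrap, a scaffold that brings acetyltransferase complexes to activators, both fell in footprints and TE. Ep400 footprints were at 119, 127 and 124 CPM in controls 1, 3 and 9 and 97.7, 95.0 and 97.2 CPM in KO mice 2, 4 and 10. Ep400 RNA was at 202, 207, 211 and 199 CPM in controls 1, 3, 6 and 8 and 192, 197, 198 and 198 CPM in KO mice 2, 4, 5 and 7. Every KO library lay below every control in both assays, but the RNA gap was small. Ep400 changed by -0.36 in footprints (edgeR, adjusted p = 2.5e-07) and -0.30 in TE (0.0125), and was not called in RNA (-0.058, adjusted p = 0.520). Trrap fell by 0.21 in footprints and 0.29 in TE. The TE call of Ep400 was lost without mouse 4 (adjusted p = 0.0789) and that of Trrap without mouse 2 (0.0769).

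KMT2 and SETD1 proteins are the catalytic subunits of the COMPASS complexes, which methylate the histone mark H3K4 at promoters and enhancers. Kmt2d and Kmt2c of this family had the largest footprint falls of all 40 genes, and Kmt2d the largest TE fall. The next largest TE fall was that of Chd7 (-0.81). Kmt2d, the Kabuki syndrome gene, had footprints at 177, 177 and 169.9 CPM in control mice 1, 3 and 9 and 99.6, 108 and 109 CPM in KO mice 2, 4 and 10. Its mRNA stood at 235, 218, 226 and 207 CPM in control mice 1, 3, 6 and 8 and 249.96, 234, 249.8 and 232 CPM in KO mice 2, 4, 5 and 7. Footprints were separated by far more than their spread, while RNA overlapped with KO mice in the upper part. The log2 fold change was -0.73 ± 0.052 (SE) in footprints (edgeR, adjusted p = 2.47e-22) and -0.86 ± 0.081 in TE (adjusted p = 1.66e-06). Kmt2d footprints thereby fell by 39.5% and TE fell by 44.9%.

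Kmt2c, which like Kmt2d acts at enhancers, had footprints at 105, 106 and 96.4 CPM in controls and 58.4, 66.1 and 64.5 CPM in KO mice, in the same order of mice. RNA libraries gave 321, 329.5, 286 and 284 CPM in control mice 1, 3, 6 and 8 and 309, 312, 279.8 and 299 CPM in KO mice 2, 4, 5 and 7, with the groups intermixed. Kmt2c fell by 0.70 ± 0.067 (SE) on the log2 scale in footprints (edgeR, adjusted p = 2.59e-15) and by 0.68 ± 0.10 in TE (adjusted p = 0.000239).

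Kmt2a, the leukaemia gene that keeps Hox genes active, had RNA at 147, 145, 127 and 114 CPM in control mice 1, 3, 6 and 8 and 185, 177, 144 and 168 CPM in KO mice 2, 4, 5 and 7. Its footprints were at 64.7, 58.0 and 70.9 CPM in control mice 1, 3 and 9 and 50.1, 44.3 and 50.3 CPM in KO mice 2, 4 and 10. KO mouse 5 was the only KO library inside the control range of RNA, and footprints did not overlap. Kmt2a rose in RNA (0.34 ± 0.089 SE; edgeR, adjusted p = 0.0339), fell in footprints (-0.42 ± 0.081, adjusted p = 2.19e-05) and fell in TE (-0.76 ± 0.15, adjusted p = 0.00292). Its RNA call was lost without mouse 2, 4, 6 or 7 (adjusted p 0.120, 0.110, 0.106 and 0.0877), without control mice 6 and 8 together (0.112; log2 fold change 0.21), with KO mice 2, 4 and 7 summed (0.296) and in mice 5 to 8 alone (0.113).

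Kmt2e has a SET domain but is not known as an active methyltransferase. It fell in footprints (-0.18, adjusted p = 0.0450) and was not called in TE (-0.32, adjusted p = 0.0756; 0.0152 with the mouse as a block, 0.0498 with DESeq2 and 0.0341 without mouse 5). Its footprint call was lost without mouse 1, 2, 3 or 4 (edgeR, adjusted p 0.181, 0.0788, 0.0564 and 0.2004), with DESeq2 (0.164), with plain library sizes (0.198) and with no filter on low counts (0.0601). Its RefSeq span overlaps Srpk2, and since the strand setting of the counting is not stated, its counts are uncertain. Setd1b footprints were at 31.9, 35.1 and 41.1 CPM in control mice 1, 3 and 9 and 25.1, 30.7 and 26.8 CPM in KO mice 2, 4 and 10. Its RNA was at 20.4, 22.6, 21.7 and 17.4 CPM in control mice 1, 3, 6 and 8 and 24.99, 23.9, 31.1 and 21.4 CPM in KO mice 2, 4, 5 and 7. KO mice were lower in footprints without overlap, and in RNA only KO mouse 7 lay inside the control range.

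Setd1b changed by -0.40 in footprints (edgeR, adjusted p = 0.00237) and -0.70 ± 0.18 (SE) in TE (0.0183). Its footprint call was lost without mouse 9 (adjusted p = 0.0514) and its TE call without mouse 2, 9 or 10 (0.104, 0.0755 and 0.0572), and with the mouse as a block TE was at -0.45 (0.0478). Setd1a, its paralogue and a schizophrenia risk gene, fell in footprints (-0.25, adjusted p = 0.0370) and was not called in TE (-0.33, adjusted p = 0.133; 0.0230 without mouse 5). Without any single footprint library the Setd1a call was lost (adjusted p 0.0930, 0.102, 0.0624, 0.0563, 0.0582 and 0.0957 without mouse 1, 2, 3, 4, 9 and 10), and with DESeq2 (0.152) and plain library sizes (0.121) as well.

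Other lysine methyltransferases act at gene bodies or silent chromatin, and 6 of 7 fell in footprints and 4 in TE. Dot1l, which methylates the core of histone H3 in transcribed genes, had the largest TE fall of the group. Its footprints were at 20.3, 23.2 and 18.6 CPM in control mice 1, 3 and 9 and 12.1, 18.1 and 15.5 CPM in KO mice 2, 4 and 10. RNA counts gave 34.9, 37.5, 34.7 and 36.4 CPM in control mice 1, 3, 6 and 8 and 45.6, 41.8, 38.2 and 41.4 CPM in KO mice 2, 4, 5 and 7. The genotypes did not overlap in either assay, with KO mice lower in footprints and higher in RNA. Dot1l changed by -0.44 in footprints (edgeR, adjusted p = 0.0129), -0.67 in TE (0.0148) and 0.22 in RNA, which was not called (0.0758). Without mouse 2 or 3 the footprint call (adjusted p 0.147 and 0.126) and the TE call (0.120 and 0.0703) were lost, and DESeq2 did not call the footprint fall (0.0947). Dot1l RNA was called higher with the exon columns (0.26, adjusted p = 0.0253), without mouse 5 (0.26, 0.0294) and in mice 1 to 4 alone (0.27, 0.0177).

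Ash1l and Nsd1, which methylate H3K36, fell by 0.34 and 0.35 in footprints and 0.44 and 0.35 in TE. The Nsd1 TE call was lost without mouse 2 (adjusted p = 0.0660), and Ash1l overlaps Dap3 in RefSeq, which makes its counts uncertain. Setd2, the enzyme of H3K36 trimethylation, fell in footprints (-0.26; -0.17 without mouse 3) and had TE at -0.33 (adjusted p = 0.0681; 0.00981 with the mouse as a block and 0.0421 with DESeq2). Ehmt1 and Ehmt2 form the dimer that methylates H3K9 in silent euchromatin. Ehmt1 fell by 0.30 in footprints and 0.32 in TE (adjusted p = 0.0348), and Ehmt2 fell by 0.22 in footprints with TE at -0.11 (adjusted p = 0.406). With the mouse as a block the Ehmt1 TE call was lost (0.0738), as it was without mouse 1, 2, 3, 4, 7, 9 or 10 (adjusted p 0.0840, 0.0657, 0.102, 0.130, 0.0597, 0.0509 and 0.115), with KO mice 2, 4 and 7 summed (0.0808), with plain library sizes (0.0900) and with no filter on low counts (0.0522). Ehmt2 RNA was called lower in mice 1 to 4 alone (-0.12, adjusted p = 0.0353).

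Setd5, an autism gene, was the member of this group that was not called, with footprints at 46.5, 48.8 and 45.2 CPM in controls 1, 3 and 9 and 51.7, 44.6 and 44.6 CPM in KO mice 2, 4 and 10. The groups overlapped, the log2 fold change was -0.0022 ± 0.086 (SE), and TE was at -0.13 (edgeR, adjusted p = 0.518). Its RNA, at 0.12 and not called (0.222), was called higher without mouse 5 (0.0461) and in mice 1 to 4 alone (0.0167).

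The paralogous acetyltransferases Crebbp and Ep300 are coactivators of activity-dependent transcription, and both fell in footprints. Crebbp, mutated in Rubinstein-Taybi syndrome, was at 243, 251 and 274 CPM in control mice 1, 3 and 9 and 186, 188 and 181 CPM in KO mice 2, 4 and 10. Its mRNA stood at 284, 268, 267 and 274 CPM in control mice 1, 3, 6 and 8 and 296, 284, 259.9 and 285 CPM in KO mice 2, 4, 5 and 7. Footprints did not overlap and RNA did. Crebbp changed by -0.47 in footprints (edgeR, adjusted p = 1.12e-16) and -0.52 in TE (0.00029). Ep300 went from 100.4 ± 5.30 to 85.7 ± 3.89 CPM in footprints (SD, n = 3; log2 fold change -0.24, adjusted p = 0.00182) and was not called in TE (-0.28, adjusted p = 0.0946). The difference between the paralogues was not tested.

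Of the deacetylases and co-regulators, 3 of 4 fell in footprints and 2 in TE. Ncor1, the scaffold that tethers HDAC3 to nuclear receptors, had footprints at 155, 163 and 165 CPM in control mice 1, 3 and 9 and 126, 129 and 126 CPM in KO mice 2, 4 and 10. RNA libraries gave 446, 462, 422 and 423 CPM in control mice 1, 3, 6 and 8 and 442, 462, 434 and 445 CPM in KO mice 2, 4, 5 and 7. KO footprints lay below all controls, and RNA overlapped throughout. Ncor1 changed by -0.35 in footprints (edgeR, adjusted p = 1.52e-08) and -0.38 in TE (0.00261). Its span overlaps Ttc19 in RefSeq, so its counts are uncertain.

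Hdac4 and Hdac5 are class IIa deacetylases that shuttle out of the nucleus on neuronal activity. Hdac5 footprints were at 63.5, 67.8 and 60.3 CPM in controls and 52.4, 51.1 and 44.4 CPM in KO mice, and Hdac4 footprints at 61.4, 66.7 and 63.8 CPM in controls and 52.4, 64.9 and 70.4 CPM in KO mice. Hdac5 was lower in every KO library and Hdac4 overlapped. The log2 fold change was -0.38 for Hdac5 (edgeR, adjusted p = 8.62e-05) and -0.029 for Hdac4 (0.831), and TE was at -0.37 (0.0158) and -0.038 (0.881). The Hdac5 TE call was lost without mouse 3, 4 or 10 (adjusted p 0.0931, 0.0522 and 0.0834), and the difference between the genes was not tested. Ankrd11, a partner of histone deacetylases and the KBG syndrome gene, fell in footprints (-0.29), with TE at -0.35 (adjusted p = 0.0834; 0.00211 with the mouse as a block, 0.0471 with DESeq2 and 0.0360 without mouse 5).

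Of the demethylases Kdm6b and Kdm5b and the TET enzyme Tet3, 0 fell in footprints or TE, and 2 rose in RNA. Kdm6b, an inducible demethylase of the repressive mark H3K27me, had RNA at 16.8, 18.5, 16.5 and 13.3 CPM in control mice 1, 3, 6 and 8 and 21.9, 23.0, 18.1 and 23.4 CPM in KO mice 2, 4, 5 and 7. Its footprints were at 14.4, 12.4 and 13.9998 CPM in control mice 1, 3 and 9 and 13.3, 14.8 and 15.1 CPM in KO mice 2, 4 and 10. In RNA only KO mouse 5 reached into the control range, and footprints were intermixed. Kdm6b rose by 0.41 ± 0.11 (SE) in RNA (edgeR, adjusted p = 0.0366), with footprints at 0.094 ± 0.15 (0.712) and TE at -0.33 ± 0.20 (0.347). Its RNA call was lost without mouse 1, 2, 4, 6 or 7 (adjusted p 0.0704, 0.0985, 0.119, 0.0882 and 0.120), without control mice 6 and 8 (0.106), with KO mice 2, 4 and 7 summed (0.254) and in mice 5 to 8 alone (0.217).

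Tet3, which oxidises methylcytosine, is the main TET enzyme of mature neurons. Its RNA was at 84.4, 84.7, 80.4 and 88.4 CPM in control mice 1, 3, 6 and 8 and 107, 112, 88.4 and 104 CPM in KO mice 2, 4, 5 and 7. Its footprints were at 28.3, 22.9 and 31.0 CPM in control mice 1, 3 and 9 and 24.0, 28.9 and 26.4 CPM in KO mice 2, 4 and 10. RNA did not overlap, although KO mouse 5 and control mouse 8 were almost equal, and footprints overlapped. Tet3 rose by 0.29 ± 0.071 (SE) in RNA (edgeR, adjusted p = 0.0264), with footprints at -0.043 ± 0.12 (0.830) and TE at -0.34 ± 0.15 (0.188). Leaving out mouse 1, 2, 3, 4, 6 or 7 ended the RNA call (adjusted p 0.0630, 0.0910, 0.0538, 0.107, 0.0885 and 0.0808), as did summing KO mice 2, 4 and 7 (0.282) and taking mice 5 to 8 alone (0.494; log2 fold change 0.19). Kdm5b, which removes H3K4 methylation, was at 165 ± 2.11 CPM in control and 152 ± 5.77 CPM in KO footprints (SD, n = 3) and was not called in footprints (-0.12, adjusted p = 0.0583; 0.0421 without mouse 4) or TE (-0.20).

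**Figure D3:**
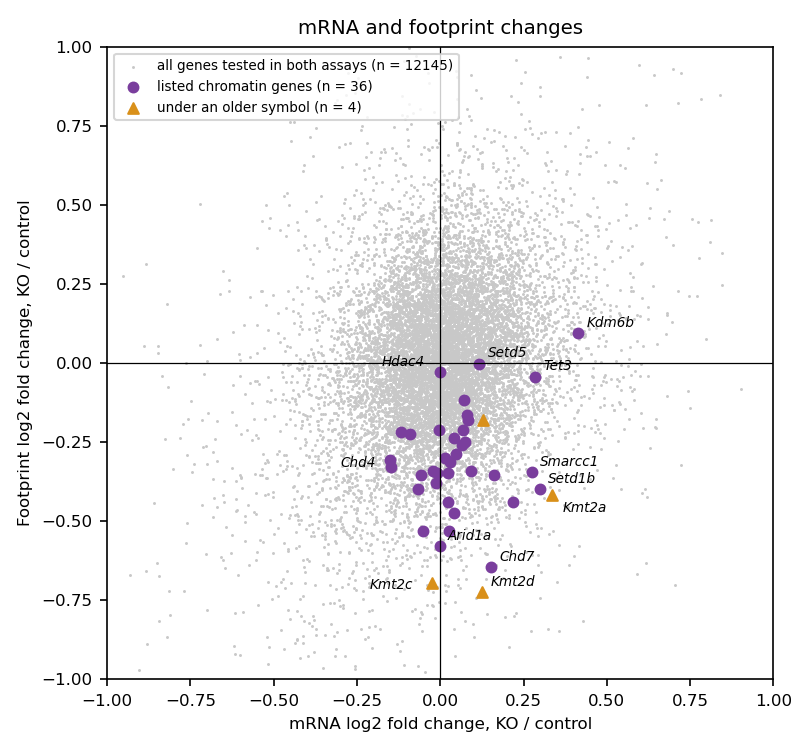
Log2 fold change in mRNA (x axis) against log2 fold change in footprints (y axis), KO against control, for all 12145 genes tested in both assays (grey; 116 lie outside the axes), the 36 listed genes (purple) and the 4 under older symbols (orange triangles). Most coloured points form a column below 0 on the y axis, with Hdac4, Setd5, Tet3 and Kdm6b near or above it.

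The promoters of Smarcc1 and Tet3, the members with a called RNA rise and no overlap between genotypes, are shown with their CpG dinucleotides. Most promoters found for the list held many of these. The sequences are the 250 bases before the annotated start, 5′ to 3′ on the gene's strand, from RefSeq on GRCm38.p6, with each CG in capitals; Smarcc1 lies at chr9:110131774-110132023 on the + strand and Tet3 at chr6:83441679-83441928 on the - strand.
Smarcc1: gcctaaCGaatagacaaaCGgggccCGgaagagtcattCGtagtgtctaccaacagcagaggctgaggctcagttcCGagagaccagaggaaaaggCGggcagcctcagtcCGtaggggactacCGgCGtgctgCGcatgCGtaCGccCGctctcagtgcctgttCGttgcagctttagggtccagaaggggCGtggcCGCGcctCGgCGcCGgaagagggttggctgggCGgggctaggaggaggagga
Tet3: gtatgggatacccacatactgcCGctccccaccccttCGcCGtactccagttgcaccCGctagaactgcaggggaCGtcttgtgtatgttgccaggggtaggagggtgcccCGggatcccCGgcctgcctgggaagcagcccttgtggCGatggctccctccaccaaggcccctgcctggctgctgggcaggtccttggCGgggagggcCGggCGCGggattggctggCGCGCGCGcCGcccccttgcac
These stretches hold 21 and 17 CG and have a GC content of 63.6% and 69.6%. They end at the start, unlike the windows counted next, so their counts are not set against the values there. CG reads the same on both strands. Over windows from 250 bases before to 50 after the start, 30 of the 40 genes were in the RefSeq table with 36 promoters, which had a median of 32 CG (1 to 56) against 13 in 21263 promoters of protein-coding genes. At least 20 CG were found in 29 of the 36 promoters and in 35.9% of the coding ones. Promoters of this kind are common among broadly expressed genes, and the count is a description.

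The listed genes also had few footprints for their mRNA before any comparison of genotypes. Baseline TE, the ratio of mean footprint CPM to mean RNA CPM in controls, had a median of 0.654 over the 36 genes against 0.912 over all 12145 genes tested. It was below the median of all genes in 28 of the 36, under the 25th percentile in 16 and under the 10th in 8. Chd3 was lowest at 0.2005, with Setd5 (0.263), Hdac5 (0.268) and Ankrd11 (0.309) next. Setd1b was highest at 1.75, followed by Smarcc1 (1.35), Arid1a (1.23) and Chd8 (1.04). Genes at both ends fell in footprints, such as Chd3 and Arid1a. In KO mice the median of the 36 genes was 0.554. The RNA columns used held a median of 82.5% of each gene's exon count, from 54.1% for Tet3 to 99.9% for Crebbp, beside 64.4% over all genes, so the ratio depends on the region counted, which is not stated.

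**Figure D4:**
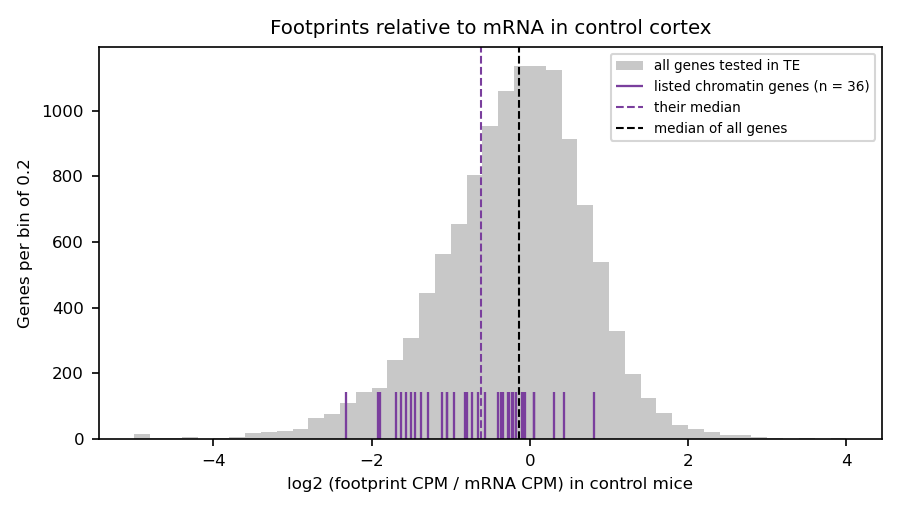
Distribution of baseline TE, as log2 of footprint CPM over mRNA CPM in control mice, over all genes tested in TE (grey bars; values beyond the ends are placed in the outermost bins); purple ticks are the 36 listed genes and dashed lines are medians. The listed genes reach from 0.2005 (Chd3) to 1.75 (Setd1b) on the linear scale, with their median of 0.654 left of the 0.912 of all genes.

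Other genes of the same complexes and pathways had calls in both directions. A separate list held 165 chromatin genes outside the 41, all found in the table, 7 of them under older symbols. In footprints 33 of 161 tested fell and 8 rose (edgeR), with a median of -0.059. The share called was 25.5%, beside 25.7% of all genes, and the share called lower was 20.5%, beside 13.7%. In TE 12 fell and 3 rose, with a median of -0.11, or 9.32% called beside 7.44% of all genes and 7.45% called lower beside 4.22%. In RNA 6 of 164 rose and 1 fell, or 4.27% beside 7.51%. The remaining 21 SWI/SNF subunits had 3 footprint falls (Pbrm1, Brd9 and Bcl11b, at -0.26, -0.28 and -0.31) and 0 rises, with a median of -0.056 and 14.3% called. The other NuRD subunits had 1 fall and 1 rise among 10, and the other COMPASS genes 3 falls and 1 rise among 12. That COMPASS list includes a further catalytic subunit, Kmt2b, which was not called in footprints (0.074; edgeR, adjusted p = 0.668) and rose in RNA (0.30, adjusted p = 0.0174). Partners of INO80, SRCAP and TIP60 complexes had 2 falls and 3 rises among 17, and Polycomb genes 4 falls and 2 rises among 22.

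Among called genes outside the list, large footprint falls were those of Tet1 (-0.61), a paralogue of Tet3, and of Pcgf2 (-0.52), a Polycomb subunit. The largest called rises were those of the Polycomb genes Pcgf5 (0.51) and Cbx8 (0.50) and of Morf4l1 (0.38), a small chromodomain protein. In TE, Pcgf2 (-0.82) and the demethylase Kdm3b (-0.59) were among the largest called falls, and Cbx8 (0.65), Dpy30 (0.49), a small COMPASS subunit, and Morf4l2 (0.40) were the largest called rises. Among DNA methylation genes, the methyltransferases Dnmt1 (-0.27) and Dnmt3a (-0.26) fell in footprints, as did Tet1. Beside the 13.7% of all genes called lower in footprints, the other deacetylases and co-repressors had 7 falls and 1 rise among 20, and the DNA methylation genes 4 falls among 10. The other histone methyltransferases had 3 falls among 17, the demethylases 3 among 15, the acetyltransferases 2 among 9 and the ISWI genes 1 among 8, with 0 rises in these lists.

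**Figure D5:**
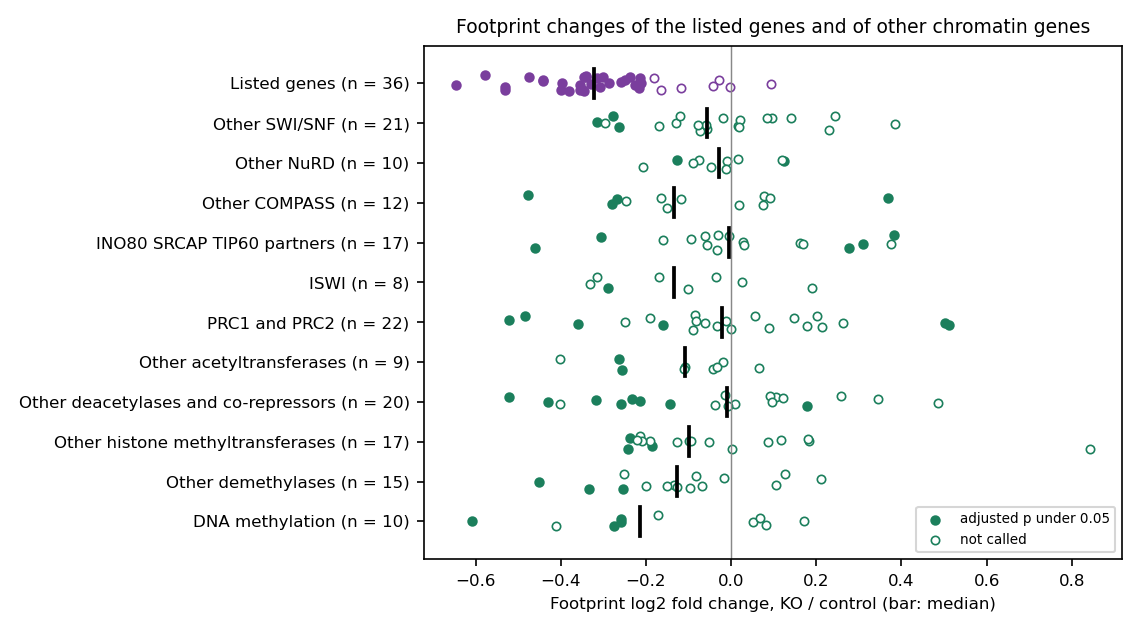
Footprint log2 fold changes, KO against control, of the 36 listed genes (purple) and of 11 lists of other chromatin genes (green); each point is a gene, filled points have an adjusted p under 0.05, and bars are medians. The median of the listed genes is at -0.32, and the medians of the other lists lie between -0.21 (DNA methylation) and -0.0060 (partners of INO80, SRCAP and TIP60).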

How the data were processed

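The authors deposited whole-number counts per gene, with no normalization, for 14 libraries (8 RNA, 6 footprint). Per the submitters' processing notes, Bowtie2, STAR 2.5, featureCounts and Subread 1.4.6 were used and the builds mm9 and mm10 are named, with no role given for either. The region counted, the strand setting and the annotation are not given in the sources used here. RNA columns without a suffix, which cover the same 20563 genes as the footprints and hold 52.9% to 56.7% of the exon totals, were used, and the exon columns served as an alternative. The other 2849 genes had no value there.

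KO was tested against control, once in RNA and once in footprint counts, with edgeR 4.0.16 in R 4.3.3 (quasi-likelihood F test, TMM factors, filterByExpr with a minimum count of 10, group means only), over all genes and two-sided. TE was the interaction of genotype and assay over all 14 libraries. Benjamini-Hochberg adjustment ran over every gene in a test, and a call is an adjusted p under 0.05. SE values were derived from the F statistic. CPM used full library sizes with TMM factors. The scripts were tested on simulated data. Alternatives used DESeq2 1.42.0 and limma 3.58.1, other size factors, no filter, blocks, subsets of mice and each mouse left out.

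By their mouse numbers, mice 1 to 4 gave a library to both assays. Their deviations from the group means correlated at 0.0033, 0.011, 0.034 and -0.013 over 12145 genes. Correlations this weak give no sign of variation that a mouse shares across assays. The fit with the mouse as a block is therefore an alternative only, and calls gained with it are not firm.

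The members and lists were chosen with earlier results of these data known. All listed genes were tested. Those named with values per library were the 4 largest called falls and rises of each test, genes called against the main direction, and the largest TE fall of each role group; of other chromatin genes, the 3 largest called falls and rises in TE and footprints. Some of these other genes are not reported here. Others named outside this rule, such as Hdac4, Hdac5 and Setd5, were chosen after their values were seen. Coding lengths were not used here, so levels are not compared between genes, and a planned description by protein length was not made.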

Additional observations from a re-analysis of the deposited data

Results flagged for a closer look

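In 8 of 80 groups of 4 RNA libraries examined (40 genes, 2 genotypes), the highest or lowest library stood farther from the others than Dixon's critical value for the gap over the range. Chance flags about 4 of 80. KO mouse 5 was that library in 5 genes, where KO mice 2, 4 and 7 were close together. Chd3 RNA was at 1239 CPM in KO mouse 5 and 1101 to 1106 CPM in the other KO mice, and Chd5 at 329 CPM against 291 to 295 CPM. Chd6 was at 163 CPM in KO mouse 5 against 184 to 189 CPM, Setd1a at 47.1 CPM against 57.7 to 59.3 CPM, and Setd5 at 176 CPM against 197.9 to 199.98 CPM. Chd9 was at 148 CPM in KO mouse 7 against 155 to 156 CPM, and Ehmt1 at 66.3 CPM in KO mouse 2 against 68.1 to 68.3 CPM. Smarcc1 was at 96.5 CPM in control mouse 1 against 85.6 to 87.4 CPM in the other controls.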

How the results depend on the processing

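The footprint count stayed at 25 to 29 of the 36 genes in 11 alternatives. The TE count ran from 12 to 25 in 20, and 12, without mouse 2, was more than 1.5 times below the 19 of the full set. Leaving out each mouse gave 12 to 22 TE calls and 1 to 5 RNA calls. In RNA, 0 genes were called with KO mice 2, 4 and 7 summed and 0 in mice 5 to 8 alone, 11 in mice 1 to 4 alone (5 higher, 6 lower), and 6 without control mice 6 and 8 (2 higher, 4 lower; this was chosen after seeing the data); the cause was not tested. Those called lower in mice 1 to 4 were Chd3, Chd4, Chd5, Chd6, Smarca2 and Ehmt2. Without control mice 6 and 8 they were Chd4, Chd5, Chd6 and Smarca2 (log2 fold changes -0.33, -0.19, -0.22 and -0.28). With the mouse as a replicate block, TE was called in 21 of the 36 genes and in 1831 genes in all, against 904 without it; besides the calls of Ehmt1, Smarcc2, Setd2, Ankrd11 and Kmt2e it changed no call among the 40. Over all genes, RNA calls numbered 1015 (7.51%) in the full set, 57 (0.423%) in mice 5 to 8 and 3284 (24.2%) in mice 1 to 4. They numbered 85 (0.623%) with KO mice 2, 4 and 7 summed and 1996 (14.6%) without control mice 6 and 8. With 1 mouse left out they ran from 372 (2.74%) to 1791 (13.2%). TE calls over all genes were 376 to 1229 with 1 mouse left out and 505 with those KO mice summed. Footprint calls over all genes were 1821 with DESeq2 against 3123 with edgeR, and TE calls 1903 with limma's voom. Calls gained in an alternative are named by gene for some settings only. With voom TE was called in 25 of the 36 genes, all lower, and the genes gained there are not named. With plain library sizes the footprint median of all genes moved to 0.066 and that of the 36 to -0.26, with 27 called lower. Of the called genes among the 40, the call was kept in every alternative for 26 of 33 in footprints, 13 of 22 in TE and 0 of 4 in RNA, and no called direction turned. Chd7, Kdm6b and Dot1l had the lowest mean footprint CPM of the 40 genes, at 21 to 137 counts per library. How far depth limits the calls was not compared between genes.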
